A study of Sus scrofa with 24 samples.

Results

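Glycolysis and the cell's response to low oxygen were followed through the life of the pig ovary with a set of 34 genes. The set holds 25 genes of glucose uptake, glycolysis and lactate handling and 9 genes of the hypoxia pathway. They were taken by gene symbol from the deposited table of 18753 genes. All 34 symbols were found there, and all 34 passed the filter on low counts, which left 15699 genes for testing.

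Messenger RNA was measured in ovaries of healthy sows of the Chenghua breed at 4 stages, with 3 sows and 3 libraries at each. The stages were postnatal day 3 (Day 3), postnatal day 120 at the onset of puberty (Puberty), 1 year of age at sexual maturity (Year 1) and day 105 of pregnancy (Pregnancy). All sows shared the same housing and a like diet, none had a record of reproductive disease, and no treatment or genetic change is named for any of them. Ovaries were rinsed, cut into fragments and frozen, and the RNA of whole fragments was captured on oligo(dT), so a library mixes every cell type of its fragment. The day of the oestrous cycle at Year 1 and the age of the pregnant sows are not given in the sources used here.

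Glycolysis turns glucose into pyruvate in the cytosol, and lactate dehydrogenase turns pyruvate into lactate, which leaves the cell through monocarboxylate transporters. When oxygen is scarce, prolyl hydroxylases no longer mark the hypoxia-inducible factor (HIF) alpha subunits for destruction, and these subunits switch on glucose transporters, glycolytic enzymes and genes of vessel growth. In the ovary, granulosa cells of the follicle pass pyruvate and lactate to the oocyte, and the growing corpus luteum is a tissue of rapid vessel growth in which HIF target genes are known to be active. HIF alpha subunits are controlled largely at the level of the protein, which these libraries do not measure.

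Library totals ran from 14615474 to 16187915 counts, and 15788 to 17702 genes had counts in a library. Levels are given as normalised CPM, counts scaled to library size (CPM) and then by TMM (the trimmed mean of M-values of edgeR), whose factors ran from 0.7518 in Year 1 replicate 2 to 1.2548 in Day 3 replicate 2. TPM, which also divides by transcript length, is used where levels of different genes are compared. Day 3 libraries lay close together (root mean square log2 difference 0.44 to 0.53), whereas Year 1 replicate 1 differed by 1.63 and 1.34 from the other Year 1 libraries and Pregnancy replicate 3 by 1.2 from both other Pregnancy libraries. Markers of luteal and steroidogenic cells (7 of 7 in the table) summed to 145 to 185 TPM at Day 3, 778 to 1530 at Puberty, 924 in Year 1 replicate 1, 24100 and 20800 in Year 1 replicates 2 and 3, 354 and 402 in Pregnancy replicates 1 and 2, and 71900 in Pregnancy replicate 3. RLN2 of that list was at 0 in Day 3 replicate 3 and Pregnancy replicate 2. Granulosa cell markers (7 of 7) summed to 315 to 372 TPM at Day 3, 2080 to 8850 at Puberty, 13000, 673 and 874 at Year 1 and 854 to 1040 for Pregnancy. CYP19A3, an aromatase gene of that list, was at 0 in Day 3 replicate 3. Theca cell markers (4 of 4) summed to 52.1 to 98.5 TPM at Day 3, 1120 to 3240 at Puberty, 4330, 81.0 and 78.3 at Year 1 and 512 to 1870 for Pregnancy. Smooth muscle markers (5 of 5) ran from 465 to 714 TPM at Day 3 and from 958 to 4270 TPM in the later libraries, macrophage markers (6 of 6) from 127 to 965 TPM and adipocyte markers (3 of 4) from 0.76 to 15.5 TPM over all libraries. Oocyte markers (8 of 8) summed to 1350 to 2330 TPM at Day 3, 154 to 226 at Puberty, 8.16 to 77.3 at Year 1 and 37.7 to 189 in Pregnancy.

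Most of the genes that differed by stage were highest at Year 1. A difference among the 4 stages was called for 20 of the 34 (adjusted p under 0.05 by edgeR's quasi-likelihood test with Benjamini-Hochberg adjustment), against 46.0% of all genes tested. Of these 20, 2 had their highest mean at Day 3, 2 at Puberty, 14 at Year 1 and 2 during Pregnancy. Over all genes that differed, the shares in the same order were 45.2%, 6.79%, 35.0% and 13.0%. A total of 22 of the 34 genes were called in at least 1 pair of stages, against 56.9% of all genes, and 12 in none. In whole tissue, fewer cells of a type and less RNA per cell cannot be told apart.

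**Figure D1:**
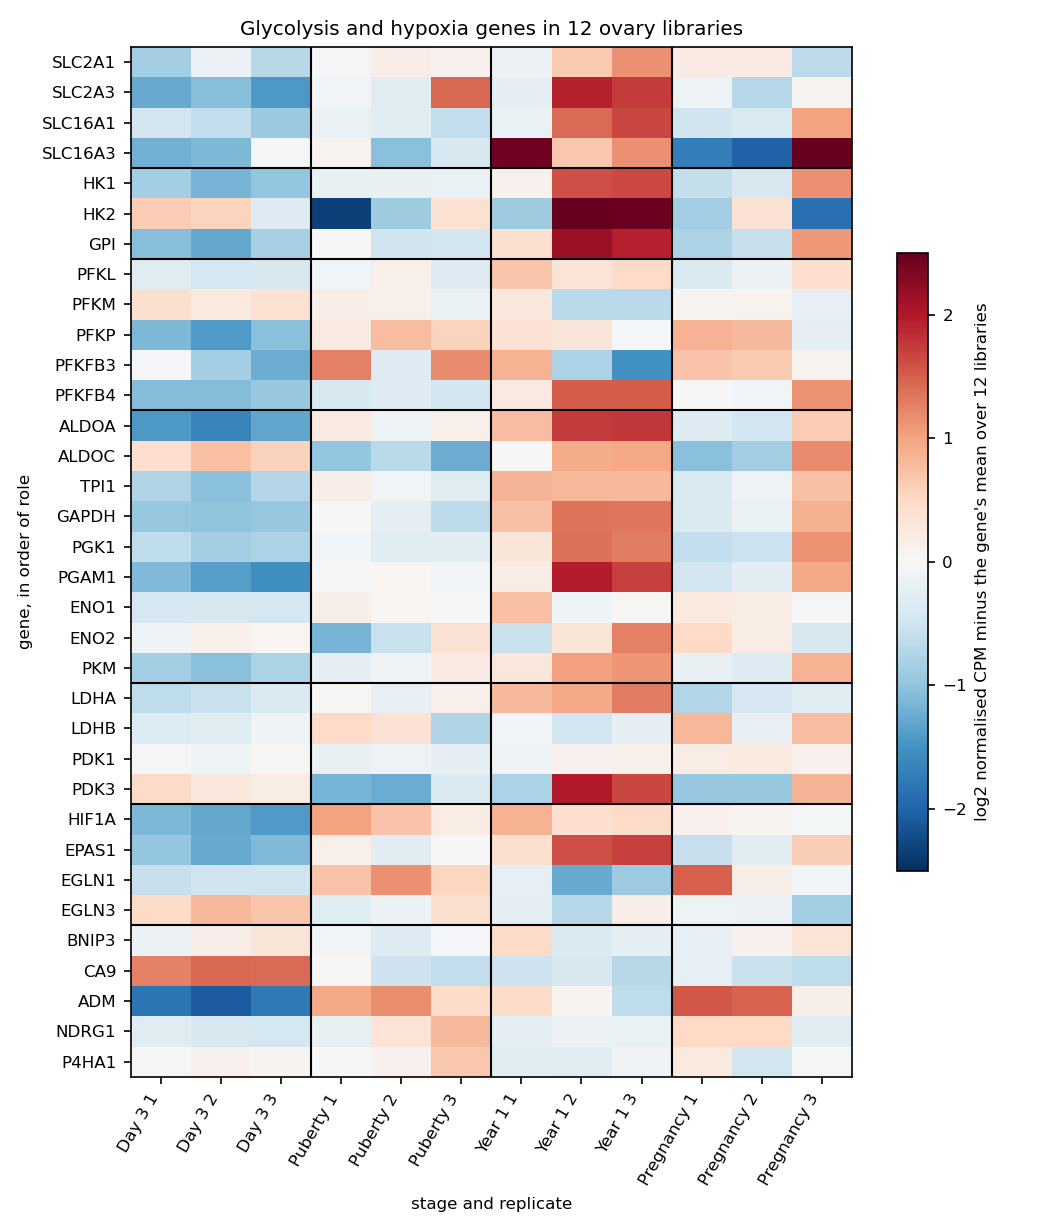
Colour shows the log2 normalised CPM of each of the 34 genes (down the page, grouped by role) minus that gene's mean over the 12 libraries (across, 3 per stage), with red above the mean and blue below it, cut at 2.5 on either side. Most glycolytic genes are blue in the Day 3 libraries and darkest red in Year 1 replicates 2 and 3, with Pregnancy replicate 3 also red for many, while CA9 and EGLN3 are reddest at Day 3.

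Together the 34 genes made up a larger share of the RNA at Year 1 than at Day 3. Their summed level was 5308, 5073 and 5390 TPM at Day 3, 7143, 6770 and 6876 TPM at Puberty, 9317, 10520 and 11100 TPM at Year 1, and 5438, 5440 and 8696 TPM in Pregnancy. Year 1 libraries lay above all others, and Pregnancy replicate 3 lay well above its 2 stage mates, which were close to the Day 3 libraries. As a share of a library's TPM, these sums ran from 0.507% in Day 3 replicate 2 to 1.11% in Year 1 replicate 3. A few abundant genes weigh most in them. GAPDH averaged 1385 TPM at Day 3 and 3484 at Year 1, and ALDOA 337.5 and 1500. Mean TPM was lower at Year 1 for ENO1, ENO2, PFKM, PFKFB3, ALDOC, LDHB, PDK1, EGLN1, EGLN3, BNIP3, CA9, NDRG1 and P4HA1. The 3 libraries with luteal marker sums of 20800 TPM or more were among the 4 with the highest summed levels, and the other of the 4 was Year 1 replicate 1, whose marker sum of 924 TPM was within the range at Puberty. Year 1 replicate 1 had the highest granulosa and theca cell marker sums of all libraries, 13000 and 4330 TPM. The part of luteal tissue, granulosa cells or theca cells in the summed levels was not tested.

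**Figure D2:**
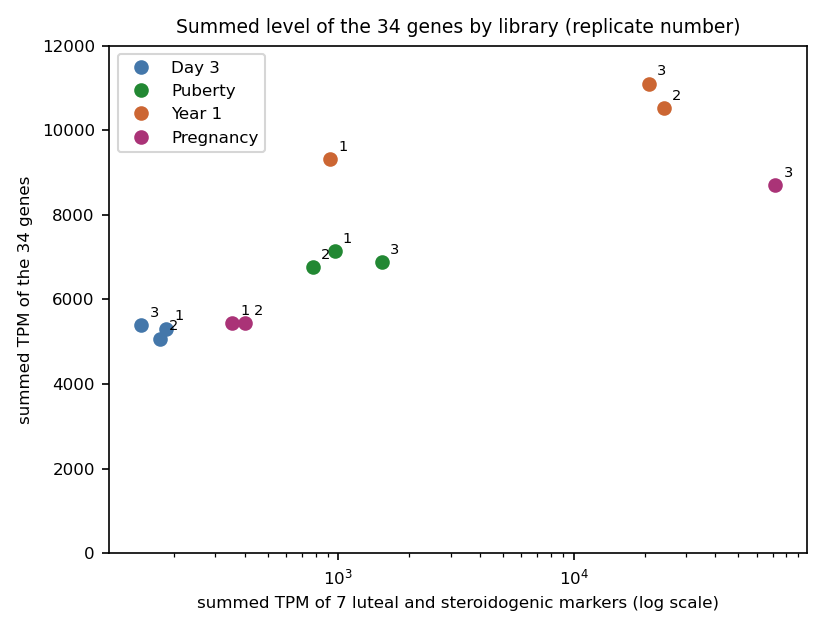
Summed TPM of the 34 genes (vertical axis) against summed TPM of 7 luteal and steroidogenic markers (horizontal axis, log scale), 1 point per library, coloured by stage and numbered by replicate. Year 1 replicates 2 and 3 and Pregnancy replicate 3 lie far to the right, and Year 1 replicate 1 is high (9317 TPM) at a marker sum of 924 TPM.

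Against Day 3, the set leaned upward at each later stage. In Year 1 vs Day 3, 19 of the 34 genes rose and 2 fell, against 48.0% of all genes called, 24.0% rising and 24.0% falling. The median log2 fold change of the 34 was 1.48, against 0.03 over all genes. In Puberty vs Day 3, 7 rose and 1 fell, against 28.7% of all genes called, 11.5% rising and 17.2% falling, with a median of 0.58 against 0.04. In Pregnancy vs Day 3, 11 rose and 2 fell, against 34% of all genes called, 15.9% rising and 18.1% falling, with a median of 0.93 against 0.10. These 3 comparisons share the Day 3 libraries. The upward lean at Year 1 lay with the glycolytic genes, of which 16 of 25 rose and none fell, while 3 of the 9 hypoxia genes rose and 2 fell. In the authors' deposited table, 24 of the 34 had a q-value under 0.05 in Puberty vs Day 3, 20 higher and 4 lower. Over all genes the share there was 45.9%. In Year 1 vs Day 3 the authors' count was 21, 19 higher and 2 lower, against 46.4% of all genes. In Pregnancy vs Day 3 it was 18, 15 higher and 3 lower, against 39.1%.

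The choice of scale bears on these splits, because TMM factors were highest at Day 3. Scaling by library totals alone, tried after seeing the data, put the median of all genes at -0.56 in Year 1 vs Day 3, where TMM gave 0.03. Under it 15 of the 34 rose and 5 fell in Year 1 vs Day 3, while 10.7% of all genes rose and 39.6% fell. The glycolytic genes then counted 12 rising and 2 falling, the 2 being PFKM (log2 fold -1.17, adjusted p = 0.0106) and PDK1 (-0.51, adjusted p = 0.0331). In Puberty vs Day 3 it gave 5 rising and 2 falling (5.47% and 21.5% of all genes), with the calls of TPI1 and EGLN1 lost (adjusted p = 0.12 and 0.104). In Pregnancy vs Day 3 it also gave 5 rising and 2 falling (6.04% and 24.7% of all genes), with the calls of TPI1, GAPDH, PGAM1, PKM, EPAS1 and EGLN1 lost (adjusted p from 0.051 to 0.167). No gene of the set called under TMM changed sign under any scaling tried. PDK1, which fell under total-count scaling, had log2 0.085 under TMM and was not called there (adjusted p = 0.665).

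**Figure D3:**
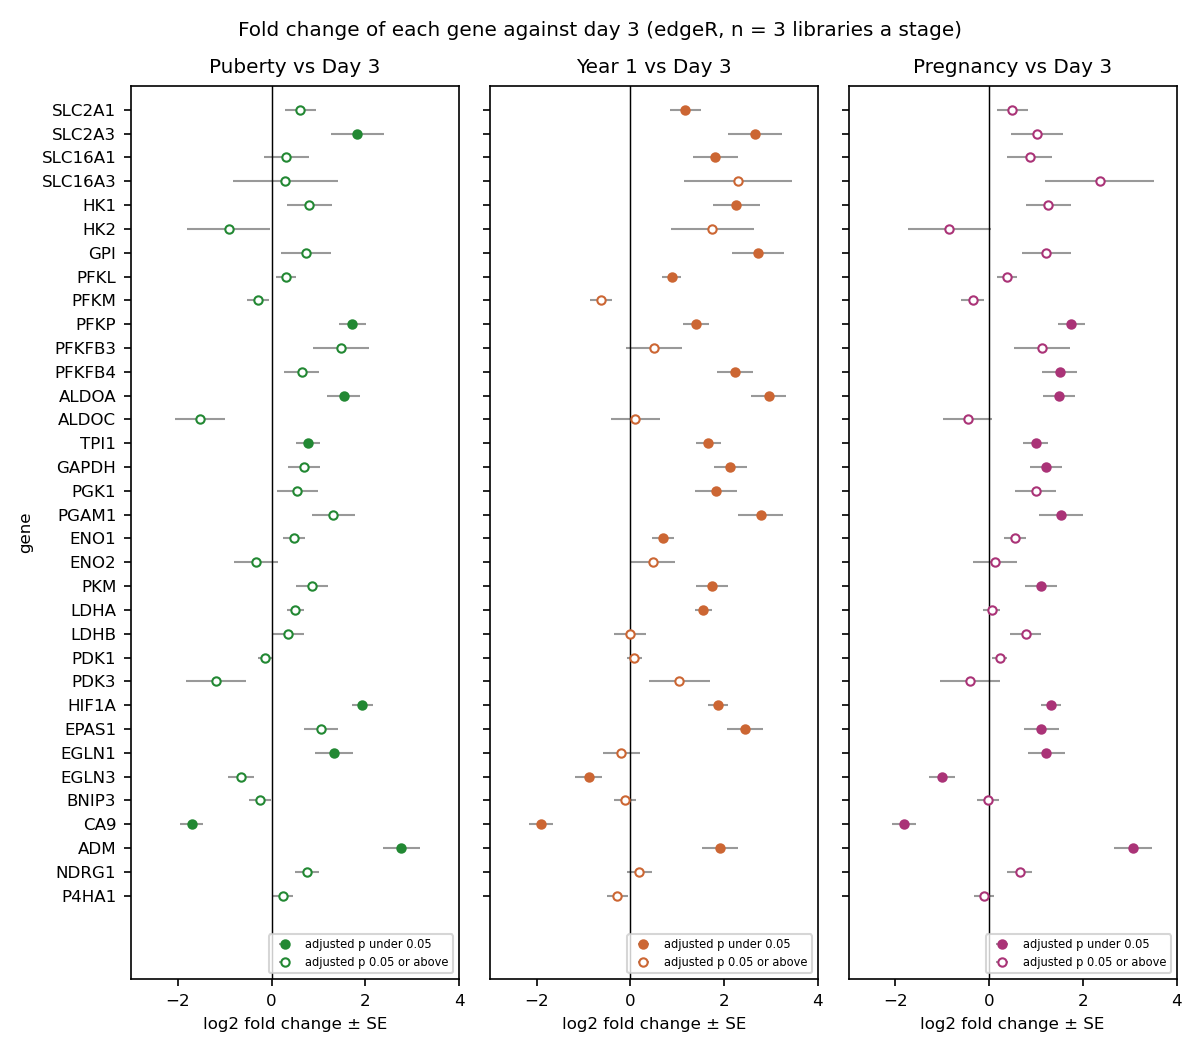
Points give the log2 fold change of each of the 34 genes against Day 3 at Puberty, Year 1 and in Pregnancy, with lines for the standard error (edgeR, 3 libraries per stage), filled where the adjusted p was under 0.05. The filled points at Year 1 lie right of 0 except EGLN3 (-0.89) and CA9 (-1.91), and the same 2 genes are the filled points left of 0 in Pregnancy.

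Glucose and lactate transporters were higher at Year 1 than at Day 3 for 3 of 4 genes. SLC2A3 (GLUT3, a glucose transporter of high affinity, chromosome 5, 62963635 to 63041955, build Sscrofa11.1 here and below) had 56.4, 64.5 and 49.9 normalised CPM at Day 3, 128, 111 and 366 at Puberty, 116, 509 and 451 at Year 1, and 124, 81.7 and 141 during Pregnancy. Every later library lay above the Day 3 libraries, with Puberty replicate 3 and Year 1 replicates 2 and 3 far above the rest. SLC2A3 rose 6.30-fold in Year 1 vs Day 3 (log2 2.66 ± 0.58 SE, adjusted p = 0.00424) and 3.55-fold in Puberty vs Day 3 (log2 1.83 ± 0.57, adjusted p = 0.0342). The Puberty call was lost without Puberty replicate 3 (adjusted p = 0.16) and without any 1 of the Day 3 libraries. The value for Pregnancy vs Day 3 was log2 1.02 (adjusted p = 0.175).

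SLC2A1 (GLUT1, the widespread basal glucose transporter, chromosome 6, 168535398 to 168561170) had 36.6, 59.5 and 40.5 normalised CPM at Day 3, 64.4, 74.0 and 70.4 at Puberty, 59.6, 104 and 144 at Year 1, and 76.0, 75.3 and 41.7 during Pregnancy. Year 1 replicate 1 was level with the highest Day 3 library. SLC2A1 rose in Year 1 vs Day 3 (log2 1.17 ± 0.33, adjusted p = 0.015), a call that was lost under total-count scaling (log2 0.54, adjusted p = 0.2) and without Year 1 replicate 3, Day 3 replicate 1 or Day 3 replicate 3 (highest adjusted p = 0.0606).

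Of the lactate transporters, SLC16A1 was called and SLC16A3 was not. SLC16A1 (MCT1, which carries lactate and pyruvate in either direction, chromosome 4, 107508048 to 107547609) had 41.4, 36.9 and 29.8 normalised CPM at Day 3, 50.5, 47.0 and 37.2 at Puberty, 50.5, 150.4 and 179.5 at Year 1, and 40.0, 43.2 and 114 during Pregnancy. It rose 3.52-fold in Year 1 vs Day 3 (log2 1.82 ± 0.49, adjusted p = 0.0117). The highest libraries were Year 1 replicates 2 and 3 and Pregnancy replicate 3, the 3 with luteal marker sums of 20800 TPM or more. SLC16A3 (MCT4, the lactate exporter of glycolytic cells) had 125, 37.0 and 51.5 normalised CPM at Year 1 and 7.11, 5.74 and 211 during Pregnancy, against 10.02, 10.7 and 22.8 at Day 3. Its 2 highest libraries were Year 1 replicate 1 and Pregnancy replicate 3, which stand apart from their stage mates, and no pair of stages was called (lowest adjusted p = 0.123, Year 1 vs Day 3).

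Hexokinase 1 and phosphoglucose isomerase, which catalyse the first steps from glucose, rose together at Year 1. GPI (phosphoglucose isomerase, chromosome 6, 44038374 to 44069331) had 129, 111 and 151 normalised CPM at Day 3, 268, 191 and 193 at Puberty, 354, 1183 and 1032 at Year 1, and 157, 181 and 574 during Pregnancy. HK1 (the hexokinase of most tissues, chromosome 14, 72383328 to 72460927) had 101, 81.3 and 93.6 normalised CPM at Day 3, 159.8, 161 and 162 at Puberty, 195, 558 and 572 at Year 1, and 121, 137 and 401 during Pregnancy. In both genes Year 1 replicates 2 and 3 were highest, Pregnancy replicate 3 came next, and no later library overlapped the Day 3 libraries. In Year 1 vs Day 3, GPI rose 6.57-fold (log2 2.72 ± 0.56, adjusted p = 0.003) and HK1 4.80-fold (log2 2.26 ± 0.50, adjusted p = 0.00421). In Pregnancy vs Day 3 neither was called (log2 1.22, adjusted p = 0.0968 for GPI and log2 1.26, adjusted p = 0.0648 for HK1).

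HK2, the insulin- and HIF-regulated hexokinase, was scarce at every stage. Its level was 7.89, 7.53 and 4.06 normalised CPM at Day 3, 1.01, 2.73 and 6.59 at Puberty, 2.76, 35.0 and 27.9 at Year 1, and 2.79, 6.57 and 1.4 during Pregnancy. Year 1 replicates 2 and 3 stood alone above 10 normalised CPM. Unlike HK1 and GPI, HK2 was low in Pregnancy replicate 3, and no pair of stages was called (lowest adjusted p = 0.0957, Year 1 vs Puberty). Of the summed TPM of the 2 hexokinases, HK1 held 92.3% ± 2.56 at Day 3, 97.6% ± 1.95 at Puberty, 95.4% ± 2.70 at Year 1 and 97.2% ± 2.46 during Pregnancy (SD, n = 3 each).

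The 3 phosphofructokinases, which commit glucose to glycolysis, changed unequally. PFKP (the platelet type, chromosome 10, 67022652 to 67087520) had 22.0, 18 and 23.3 normalised CPM at Day 3, 56.4, 82.0 and 70.9 at Puberty, 61.7, 59.7 and 46.6 at Year 1, and 88.0, 84.6 and 40.7 during Pregnancy. All later libraries lay above the Day 3 libraries. PFKP rose 3.31-fold in Puberty vs Day 3 (log2 1.73 ± 0.28, adjusted p = 0.00215), 2.65-fold in Year 1 vs Day 3 (log2 1.41 ± 0.28, adjusted p = 0.00266) and 3.37-fold in Pregnancy vs Day 3 (log2 1.75 ± 0.28, adjusted p = 0.00147). Under total-count scaling the Year 1 call was lost (log2 0.83, adjusted p = 0.0587) and the other 2 were kept.

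PFKL (the liver type, chromosome 13, 207167287 to 207191688) had 84.8, 77.2 and 79.0 normalised CPM at Day 3, 100, 114 and 83.3 at Puberty, 168, 130.2 and 145 at Year 1, and 81.1, 93.8 and 139.5 during Pregnancy. It rose in Year 1 vs Day 3 (log2 0.88 ± 0.21, adjusted p = 0.00648), with no overlap of libraries, but not under total-count scaling (log2 0.31, adjusted p = 0.248). PFKM (the muscle type) had 60.05, 31.8 and 31.6 normalised CPM at Year 1, against 66.2, 59.2 and 65.4 at Day 3, and missed the threshold (log2 -0.63 ± 0.24, adjusted p = 0.0507). Of the summed phosphofructokinase TPM, PFKM held 39.0% ± 0.509 at Day 3, 23.8% ± 2.60 at Puberty, 16.6% ± 3.86 at Year 1 and 22.2% ± 2.07 during Pregnancy (SD, n = 3 each). PFKP held 13.5% ± 1.14, 33.1% ± 4.79, 24.4% ± 3.54 and 32.9% ± 11.9 in the same order of stages. The Day 3 libraries thus held the highest PFKM shares and the lowest PFKP shares of the 12, and shares within a library do not depend on its scaling.

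Fructose 2,6-bisphosphate, the main activator of phosphofructokinase, is made by the PFKFB enzymes. PFKFB4 (chromosome 13, 31212553 to 31259785) had 24.5, 24.4 and 27.1 normalised CPM at Day 3, 39.2, 41.7 and 37.7 at Puberty, 60.4, 148 and 148 at Year 1, and 52.3, 49.9 and 113 during Pregnancy. It rose 4.68-fold in Year 1 vs Day 3 (log2 2.23 ± 0.38, adjusted p = 0.00125) and 2.83-fold in Pregnancy vs Day 3 (log2 1.50 ± 0.37, adjusted p = 0.0118). PFKFB3, an isoform known as a HIF target, ranged from 8.48 normalised CPM in Year 1 replicate 3 to 57.8 in Puberty replicate 1 and was called in no pair (lowest adjusted p = 0.0904, Puberty vs Day 3). Year 1 replicates 2 and 3 were high for PFKFB4 and low for PFKFB3, at 14 and 8.48 normalised CPM, whereas Year 1 replicate 1 had 44.1.

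The lower part of glycolysis, from aldolase to pyruvate kinase, held 7 of 9 genes that rose in Year 1 vs Day 3 and none that fell. ALDOA (aldolase A, which splits fructose 1,6-bisphosphate, chromosome 3, 18241879 to 18260167) had 282, 242 and 311 normalised CPM at Day 3, 894, 704 and 826 at Puberty, 1298, 2565 and 2584 at Year 1, and 605, 549 and 1188 during Pregnancy. Year 1 lay above all other stages, and every later library lay above the Day 3 libraries. ALDOA rose 7.72-fold in Year 1 vs Day 3 (log2 2.95 ± 0.37, adjusted p = 0.000271), 2.90-fold in Puberty vs Day 3 (log2 1.54 ± 0.35, adjusted p = 0.00907) and 2.80-fold in Pregnancy vs Day 3 (log2 1.49 ± 0.35, adjusted p = 0.00865). These 3 calls were kept in every fit that left out 1 library. PGAM1 (phosphoglycerate mutase, chromosome 14, 108822782 to 108832818) had 122, 101 and 90.3 normalised CPM at Day 3, 259, 271 and 248 at Puberty, 295, 1014 and 850.5 at Year 1, and 188, 214 and 505 during Pregnancy. PGAM1 rose 6.89-fold in Year 1 vs Day 3 (log2 2.79 ± 0.48, adjusted p = 0.00131) and 2.89-fold in Pregnancy vs Day 3 (log2 1.53 ± 0.46, adjusted p = 0.0269). The Pregnancy call was lost without Pregnancy replicate 3, the highest of its stage (adjusted p = 0.0976), and without any 1 of the Day 3 libraries.

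GAPDH (glyceraldehyde 3-phosphate dehydrogenase, often used as a reference gene, chromosome 5, 64129678 to 64135194) differed among the 4 stages (adjusted p = 0.00348). It had 753, 725 and 752 normalised CPM at Day 3, 1450.0, 1225 and 926 at Puberty, 2418, 3703 and 3675 at Year 1, and 1138, 1301 and 2708 during Pregnancy. No later library overlapped Day 3, and the Year 1 libraries overlapped only Pregnancy replicate 3. GAPDH rose 4.39-fold in Year 1 vs Day 3 (log2 2.13 ± 0.35, adjusted p = 0.00105) and 2.31-fold in Pregnancy vs Day 3 (log2 1.21 ± 0.34, adjusted p = 0.021). The Pregnancy call was lost without any 1 of the Day 3 libraries (highest adjusted p = 0.0745). It was also the most abundant of the 34 genes at every stage, with stage means of 1385, 1755, 3484 and 2015 TPM from Day 3 to Pregnancy.

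PKM (pyruvate kinase of muscle and most proliferating tissues, chromosome 7, 60971807 to 61032780) had 589.9, 516 and 615 normalised CPM at Day 3, 911, 999 and 1222 at Puberty, 1286, 2155 and 2282 at Year 1, and 926, 853 and 1929 during Pregnancy. It rose in Year 1 vs Day 3 (log2 1.73 ± 0.34, adjusted p = 0.00255) and in Pregnancy vs Day 3 (log2 1.11 ± 0.34, adjusted p = 0.0285). The Pregnancy call was lost without Pregnancy replicate 3 or any 1 of the Day 3 libraries (highest adjusted p = 0.104) and in a fit of only these 2 stages (adjusted p = 0.0508). PGK1 (phosphoglycerate kinase, chromosome X, 62187472 to 62210321) had 128, 109 and 115 normalised CPM at Day 3, 189.9, 161 and 164 at Puberty, 247, 515 and 486 at Year 1, and 129.9, 137 and 433 during Pregnancy. It rose in Year 1 vs Day 3 (log2 1.83 ± 0.45, adjusted p = 0.00732), and Pregnancy replicates 1 and 2 were only just above Day 3. TPI1 (triosephosphate isomerase, chromosome 5, 63839473 to 63842853) had 151, 124 and 152 normalised CPM at Day 3, 286, 240.4 and 205 at Puberty, 456, 450.4 and 446 at Year 1, and 198, 232 and 419 during Pregnancy. Unlike ALDOA, GPI and PGAM1, TPI1 was nearly equal in the 3 Year 1 libraries. TPI1 rose in Year 1 vs Day 3 (log2 1.66 ± 0.27, adjusted p = 0.000954), in Pregnancy vs Day 3 (log2 0.99 ± 0.26, adjusted p = 0.0159) and in Puberty vs Day 3 (log2 0.78 ± 0.26, adjusted p = 0.048). The Puberty call was lost in 9 of the 12 fits that left out 1 library (highest adjusted p = 0.179, without Day 3 replicate 2), being kept without Year 1 replicate 1, Pregnancy replicate 1 or Pregnancy replicate 3, and the Pregnancy call without Day 3 replicate 2 (adjusted p = 0.073). RLE scaling and upper-quartile scaling also ended the Puberty call (adjusted p = 0.0627 and 0.0553).

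ENO1 (enolase 1, which makes phosphoenolpyruvate, chromosome 6, 69385879 to 69401664) was abundant from the start. It had 958, 964 and 947 normalised CPM at Day 3, 1407, 1315 and 1273 at Puberty, 2137, 1176 and 1308 at Year 1, and 1520.0, 1448 and 1244 during Pregnancy. Here Year 1 replicate 1 was the highest of the 12 libraries, whereas for ALDOA, GPI and HK1 it was the lowest of the 3 Year 1 libraries. ENO1 rose in Year 1 vs Day 3 (log2 0.69 ± 0.23, adjusted p = 0.0329). The call was lost under total-count scaling (log2 0.14, adjusted p = 0.72), under upper-quartile scaling (adjusted p = 0.168), in a fit of only these 2 stages (adjusted p = 0.0789) and without Year 1 replicate 1, Puberty replicate 2 or any 1 of the Day 3 libraries (highest adjusted p = 0.0927). ENO2, the neuronal enolase, held 1.14% to 1.95% of the summed enolase TPM by stage mean and was called in no pair.

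ALDOC, the brain-type aldolase, did not follow ALDOA. It had 40.1, 50.8 and 44.9 normalised CPM at Day 3, 15.3, 19.0 and 12.8 at Puberty, 29.9, 57.5 and 59.1 at Year 1, and 14.6, 16.4 and 68.1 during Pregnancy. Puberty libraries lay below all Day 3 libraries, but the difference missed the threshold (log2 -1.53 ± 0.53, adjusted p = 0.0534) and passed it under total-count scaling (log2 -1.78, adjusted p = 0.0168). In the authors' deposited table its DESeq2 q-value in Puberty vs Day 3 was 4.63e-12. Its share of the summed aldolase TPM was 16.1% ± 3.09 at Day 3, 2.24% ± 0.682 at Puberty, 2.54% ± 0.028 at Year 1 and 4.06% ± 1.88 during Pregnancy (SD, n = 3 each). The lowest Day 3 share, 14.2%, was more than that of any later library, of which the highest was 6.20%.

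**Figure D4:**
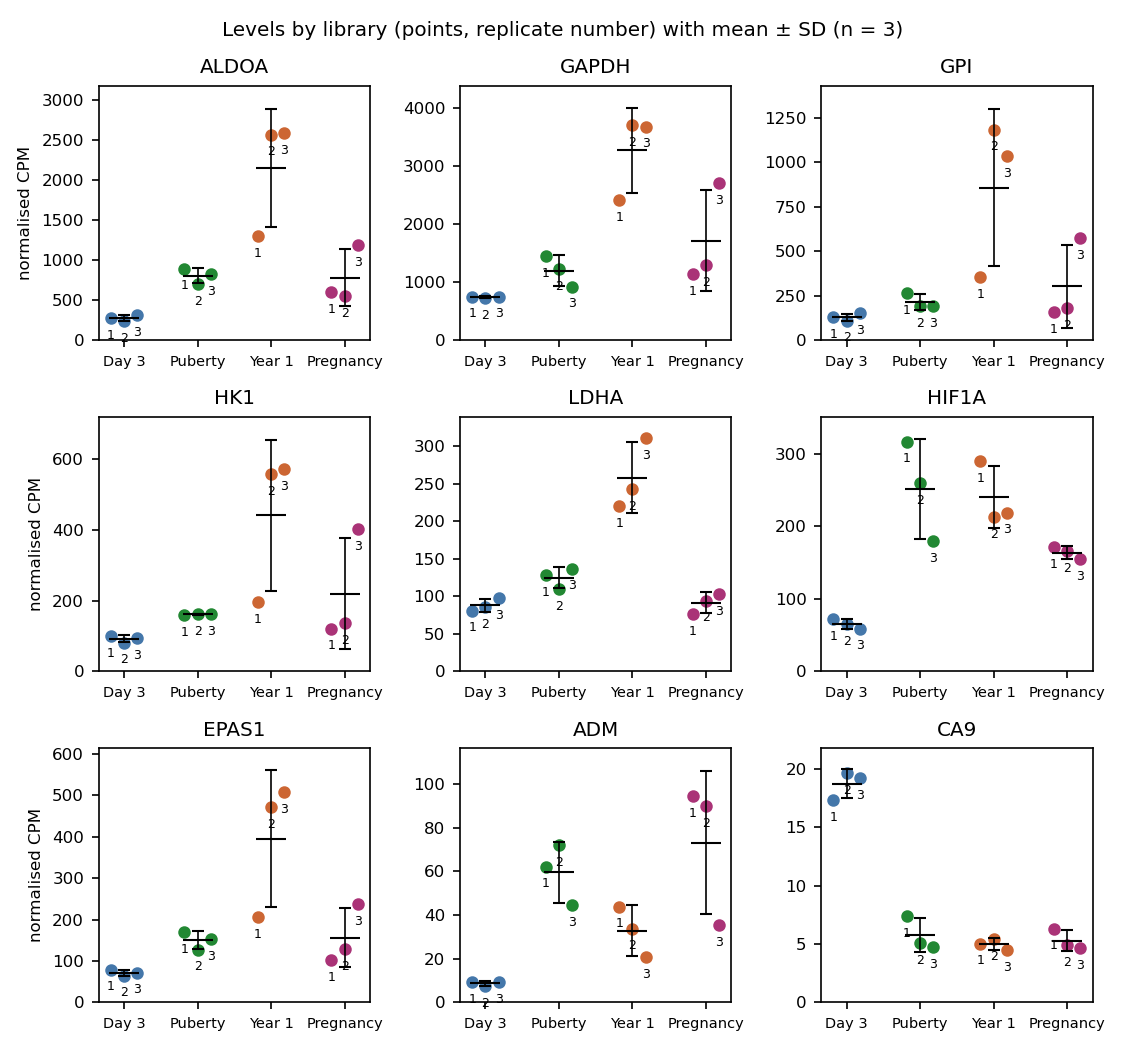
Normalised CPM of 9 genes in each of the 12 libraries (points, numbered by replicate) with the stage mean and SD (bars, n = 3), on linear axes from 0. ALDOA, GAPDH, GPI, HK1 and EPAS1 are highest in Year 1 replicates 2 and 3, LDHA is high in all 3 Year 1 libraries, HIF1A and ADM are high in every stage after Day 3, and CA9 is highest at Day 3.

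At the end of the pathway, LDHA (the lactate dehydrogenase A subunit, which favours lactate formation, chromosome 2, 40814163 to 40827284) was highest at Year 1. It had 81.0, 85.2 and 97.4 normalised CPM at Day 3, 128, 109.5 and 137 at Puberty, 220.4, 242 and 311 at Year 1, and 76.2, 94.3 and 103 during Pregnancy. The Year 1 libraries overlapped no other stage, and the Pregnancy libraries overlapped Day 3. LDHA rose 2.93-fold in Year 1 vs Day 3 (log2 1.55 ± 0.18, adjusted p = 0.000225), while Pregnancy vs Day 3 gave log2 0.06 ± 0.18 (adjusted p = 0.833). It had the lowest adjusted p of the 34 genes among the 4 stages (0.000285). Pregnancy replicate 3, with the highest luteal marker sum of all libraries, was the highest of its stage for LDHA and lay below all Puberty and Year 1 libraries. Year 1 replicate 1, with a low luteal marker sum and the highest granulosa and theca cell marker sums, was the lowest of its stage for LDHA. It lay above all libraries of other stages. The part of luteal tissue, granulosa cells or theca cells in the LDHA level was not tested.

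LDHB, the subunit that favours pyruvate formation, is represented by 2 loci in the table. The row with the symbol LDHB is a locus of 1 transcript on chromosome 2 (12988754 to 12990033). A second locus, annotated as LDHB on chromosome 5 (51810932 to 51831218), was not chosen by symbol and was added after the files were seen. Reads can be divided between loci of like sequence, so their separate levels are uncertain. The chromosome 2 locus ranged from 20.3 to 61.2 normalised CPM over the 12 libraries and was called in no pair of stages. The chromosome 5 locus had 678, 741 and 640.5 normalised CPM in Pregnancy, against 319.5, 329.8 and 309 at Day 3, and rose 2.15-fold (log2 1.11 ± 0.25, adjusted p = 0.00706), a call that was lost under total-count scaling (log2 0.74, adjusted p = 0.0992). At Year 1 it had 522, 248 and 304 normalised CPM, which overlapped Day 3.

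The share of LDHA was largest at Year 1 and smallest in Pregnancy. LDHA held 16.2% ± 1.55 of the summed TPM of LDHA and both LDHB loci at Day 3, 15.1% ± 2.36 at Puberty, 35.2% ± 10.2 at Year 1 and 8.70% ± 1.42 during Pregnancy (SD, n = 3 each). The lowest Year 1 share was 23.5% and the highest share in any other stage was 17.9%. The highest Pregnancy share, 10.2%, was below the lowest share of every other stage, 12.7%. These shares were not tested.

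**Figure D5:**
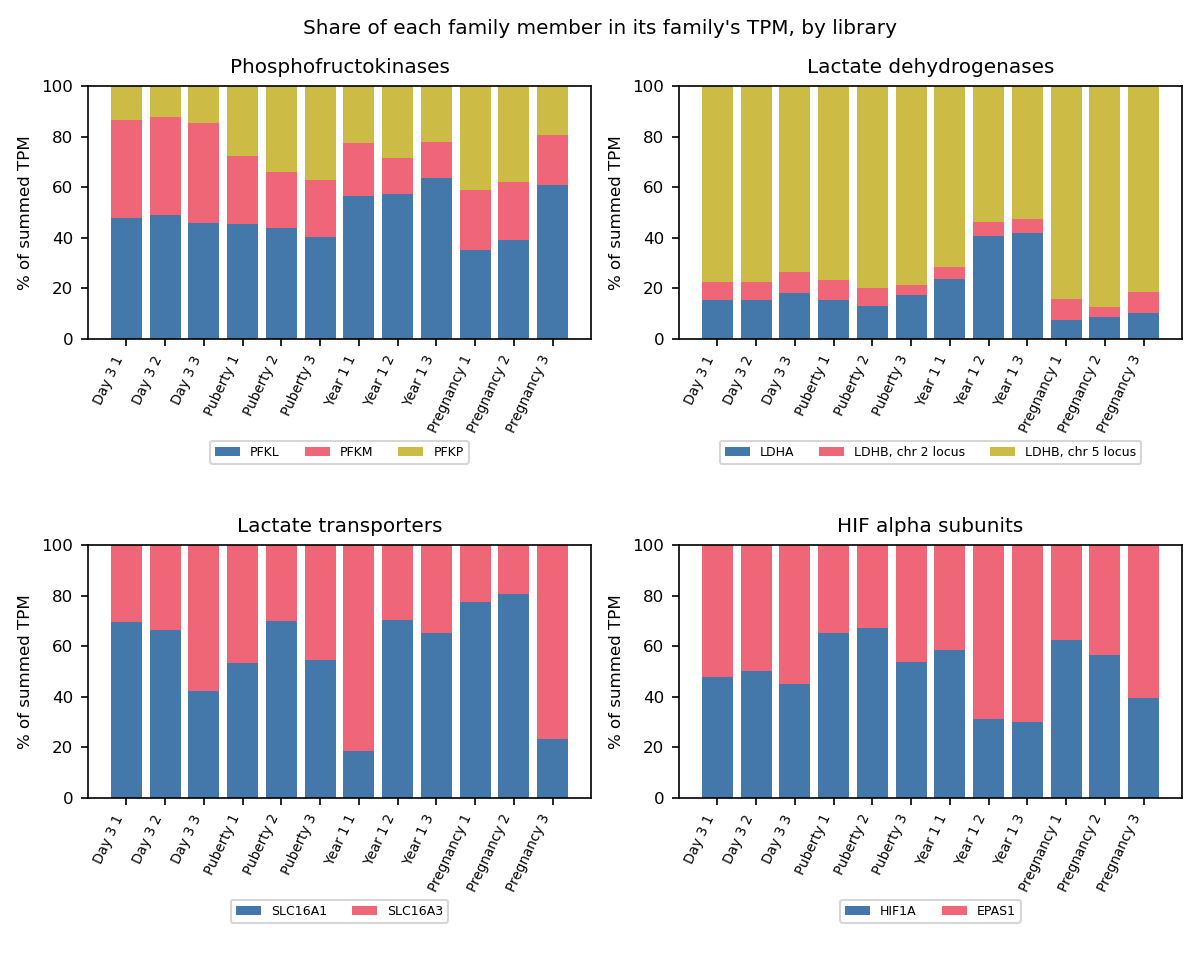
Stacked bars give the share of each family member in its family's summed TPM, in percent, for each of the 12 libraries. PFKM shrinks after Day 3, LDHA is largest in the 3 Year 1 libraries and smallest in Pregnancy, SLC16A3 is largest in Year 1 replicate 1 and Pregnancy replicate 3, and EPAS1 exceeds HIF1A most in Year 1 replicates 2 and 3.

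Pyruvate dehydrogenase kinases keep pyruvate out of the mitochondrial pathway, and the 2 in the set, PDK1 and PDK3, were called in no pair of stages. PDK1, a known HIF target, varied little, from 15.0 to 21.1 normalised CPM over the 12 libraries. PDK3 had 77.8, 67.3 and 62.8 normalised CPM at Day 3, 24.7, 23.6 and 43.1 at Puberty, 32.2, 221 and 177 at Year 1, and 28.8, 28.9 and 99.4 during Pregnancy. Its 3 highest libraries were again Year 1 replicates 2 and 3 and Pregnancy replicate 3, and its lowest adjusted p was 0.0739, in Year 1 vs Puberty.

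Both HIF alpha subunits rose after Day 3, HIF1A in 3 of 3 comparisons with Day 3 and EPAS1 in 2. HIF1A (chromosome 1, 190625436 to 190673926) had 72.5, 65.5 and 59.1 normalised CPM at Day 3, 317, 259.5 and 179 at Puberty, 290.3, 213 and 219 at Year 1, and 171, 166 and 154 during Pregnancy. Every later library held more than 2 times the level of any Day 3 library. HIF1A rose 3.83-fold in Puberty vs Day 3 (log2 1.94 ± 0.22, adjusted p = 0.00042), 3.66-fold in Year 1 vs Day 3 (log2 1.87 ± 0.22, adjusted p = 0.00022) and 2.49-fold in Pregnancy vs Day 3 (log2 1.32 ± 0.22, adjusted p = 0.00161). All 3 calls were kept in every fit that left out 1 library.

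EPAS1 (HIF-2 alpha, prominent in endothelium, chromosome 3, 94167759 to 94253892) had 79.3, 64.7 and 72.2 normalised CPM at Day 3, 169, 127 and 154 at Puberty, 205, 471 and 508 at Year 1, and 103, 128 and 238 during Pregnancy. It was highest in Year 1 replicates 2 and 3, unlike HIF1A, and no later library overlapped Day 3. EPAS1 rose 5.48-fold in Year 1 vs Day 3 (log2 2.45 ± 0.38, adjusted p = 0.000798) and 2.17-fold in Pregnancy vs Day 3 (log2 1.12 ± 0.37, adjusted p = 0.0387). In Puberty vs Day 3 it just missed the threshold at a like size (2.08-fold, log2 1.06 ± 0.37, adjusted p = 0.0526). In the authors' deposited table the DESeq2 q-value of EPAS1 in that comparison was 5.85e-09. The Pregnancy call was lost without Pregnancy replicate 3 (adjusted p = 0.14) and without any 1 of the Day 3 or Puberty libraries. Endothelial markers (6 of 6) summed to 132 to 144 TPM at Day 3, 148 to 228 at Puberty, 167 to 309 at Year 1 and 171 to 351 in Pregnancy, and their part in the EPAS1 level was not tested. Of the summed TPM of the 2 subunits, HIF1A held 47.6% ± 2.65 at Day 3, 62.0% ± 7.14 at Puberty, 39.9% ± 16.1 at Year 1 and 52.7% ± 12 during Pregnancy (SD, n = 3 each).

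The prolyl hydroxylases, oxygen sensors that tag HIF alpha for destruction, differed in direction after Day 3. EGLN1 (PHD2, the main HIF hydroxylase, chromosome 14, 59113527 to 59169713) had 45.5, 48.0 and 47.9 normalised CPM at Day 3, 111, 149 and 97.9 at Puberty, 59.0, 28.2 and 36.1 at Year 1, and 190.0, 75.0 and 64.8 during Pregnancy. It rose in Puberty vs Day 3 (log2 1.34 ± 0.40, adjusted p = 0.0302) and in Pregnancy vs Day 3 (log2 1.22 ± 0.40, adjusted p = 0.0379), and Year 1 libraries lay on both sides of Day 3. The Puberty call was lost without Puberty replicate 1, Puberty replicate 2 or any 1 of the Day 3 libraries (highest adjusted p = 0.104). The Pregnancy call was lost without Puberty replicate 1, Pregnancy replicate 1 or any 1 of the Day 3 libraries (highest adjusted p = 0.172). Upper-quartile scaling ended both (adjusted p = 0.0533 and 0.0723). EGLN3 (PHD3, itself a known HIF target, chromosome 7, 65805513 to 65833536) had 38.7, 48.1 and 44.3 normalised CPM at Day 3, 22.5, 24.9 and 36.4 at Puberty, 23.2, 16.8 and 30.8 at Year 1, and 25.2, 24.9 and 15.3 during Pregnancy. EGLN3 fell to 0.540 of the Day 3 level at Year 1 (log2 -0.89 ± 0.28, adjusted p = 0.0246) and to 0.499 of it in Pregnancy (log2 -1.0 ± 0.28, adjusted p = 0.0204). The Year 1 call was lost without Year 1 replicate 2, Day 3 replicate 2 or Day 3 replicate 3 (highest adjusted p = 0.0866), and the Pregnancy call without Pregnancy replicate 3, Day 3 replicate 2 or Day 3 replicate 3 (highest adjusted p = 0.0662).

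Among the other hypoxia targets, ADM rose and CA9 fell at every stage after Day 3. ADM (adrenomedullin, a vasodilator peptide, chromosome 2, 49229223 to 49231521) had 9.19, 7.59 and 9.40 normalised CPM at Day 3, 62.1, 72.0 and 44.3 at Puberty, 43.9, 33.8 and 20.7 at Year 1, and 94.4, 89.6 and 35.4 during Pregnancy. Its fold changes against Day 3 were 6.81 at Puberty (log2 2.77 ± 0.40, adjusted p = 0.00119), 3.76 at Year 1 (log2 1.91 ± 0.39, adjusted p = 0.00284) and 8.38 in Pregnancy (log2 3.07 ± 0.40, adjusted p = 0.000553). The lowest later library, Year 1 replicate 3, was still at more than 2 times the highest Day 3 library.

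CA9 (carbonic anhydrase 9, a membrane enzyme and widely used hypoxia marker, chromosome 1, 236393727 to 236400994) had 17.3, 19.6 and 19.2 normalised CPM at Day 3, 7.42, 5.04 and 4.75 at Puberty, 5.03, 5.45 and 4.49 at Year 1, and 6.31, 4.91 and 4.63 during Pregnancy. The 9 later libraries lay in a narrow band well below Day 3. CA9 fell to 0.307 of the Day 3 level at Puberty (log2 -1.70 ± 0.25, adjusted p = 0.00139), to 0.267 at Year 1 (log2 -1.91 ± 0.26, adjusted p = 0.00039) and to 0.283 in Pregnancy (log2 -1.82 ± 0.25, adjusted p = 0.000736). All 6 calls of ADM and CA9 were kept in every fit that left out 1 library. Surface epithelium markers (4 of the 5 listed were in the table) were also highest at Day 3, summing to 118 to 172 TPM there, 12.3 to 29.5 at Puberty, 1.03 to 8.26 at Year 1 and 2.99 to 13.3 in Pregnancy, and the part of these cells, or of the oocytes given above, in the CA9 level was not tested. Erythrocyte markers (4 of the 6 listed were in the table) summed to 882 to 1140 TPM at Day 3, 184 to 252 at Puberty, 181 to 970 at Year 1 and 284 to 2050 in Pregnancy. Pregnancy replicate 3 had the highest erythrocyte sum, 2050 TPM, and Year 1 replicate 2 had 970 TPM, within the Day 3 range. CA9 was at 4.63 and 5.45 normalised CPM in these 2 libraries. The part of erythrocytes in the CA9 level was not tested.

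BNIP3 (a mitophagy receptor), NDRG1 (a stress-response protein) and P4HA1 (a collagen prolyl hydroxylase subunit) were called in no pair of stages. Over the 12 libraries BNIP3 ranged from 67.0 to 119 normalised CPM, NDRG1 from 128 to 303 and P4HA1 from 118 to 258. NDRG1 came closest to a call in Puberty vs Day 3 (log2 0.76 ± 0.27, adjusted p = 0.0544). In the authors' deposited table its DESeq2 q-value in that comparison was 0.00737. P4HA1 passed the threshold under total-count scaling in Year 1 vs Day 3 (log2 -0.87, adjusted p = 0.0111), where TMM gave log2 -0.28 (adjusted p = 0.311).

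Between Puberty and Year 1, no gene of the set passed the edgeR test, though the median log2 fold change of the 34 was 0.83, against -0.03 over all genes. Over all genes 0.0255% were called. At an unadjusted p under 0.05 there were 19 of the 34, against 31.2% of all genes. DESeq2 called 15, of which 14 rose and EGLN1 fell, against 20.3% of all genes. Without Year 1 replicate 1 and Pregnancy replicate 3, edgeR called 24, of which 20 rose and 4 fell, against 51.6% of all genes. In that fit GPI rose (log2 2.35 ± 0.19, adjusted p = 2.48e-05), as did HK1 (1.81 ± 0.12, adjusted p = 9.81e-06), ALDOA (1.67 ± 0.15, adjusted p = 3.75e-05) and LDHA (1.15 ± 0.16, adjusted p = 0.000416). The 4 that fell were PFKM (-0.72), PFKFB3 (-1.97), EGLN1 (-1.89) and ADM (-1.13), with adjusted p from 0.00167 to 0.0108. Both libraries were picked because they stood apart in these same data. Year 1 replicate 1 was the lowest of its stage for the named genes that rose and the highest for the 4 that fell. Leaving it out made these changes larger, so this fit is no independent support for them. In the authors' deposited table, 16 of the 34 had a q-value under 0.05, 15 higher and 1 lower at Year 1, against 11.0% of all genes.

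Leaving out Year 1 replicate 1 alone gave 19 calls in this comparison, against 38.3% of all genes, and leaving out Pregnancy replicate 3 alone, which is in neither stage but adds to the shared estimate of spread, gave 17, against 16.7% of all genes. The other 10 fits that left out 1 library gave 0. Within Year 1, most glycolytic genes were higher in replicates 2 and 3, which also held the luteal marker sums of 20800 TPM or more. Genes highest in replicate 1 instead included ENO1, PFKL, PFKP, PFKM, PFKFB3, SLC16A3 and TPI1. Replicate 1 held the highest granulosa and theca cell marker sums of all libraries. The part of luteal tissue, granulosa cells or theca cells in these levels was not tested.

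Between Year 1 and Pregnancy, 1 gene of the set was called, LDHA, which fell to 0.354 of its Year 1 level (log2 -1.50 ± 0.18, adjusted p = 0.0269). Over all genes 2.96% were called, 1.34% rising and 1.62% falling. The median of the 34 was -0.56, against 0.05 over all genes. The LDHA call held under total-count scaling (log2 -1.28, adjusted p = 0.0324) and was lost in a fit of only these 2 stages, at a like size (log2 -1.53, adjusted p = 0.289). It was also lost in 8 of the 12 fits that left out 1 library (highest adjusted p = 0.153, without Year 1 replicate 3), being kept without Puberty replicate 1, Puberty replicate 3, Year 1 replicate 1 or Pregnancy replicate 3. The log2 fold change in those 12 fits ran from -1.61 to -1.36. DESeq2 called 10 of the 34, 2 rising (EGLN1 and ADM) and 8 falling, against 18% of all genes. Without Year 1 replicate 1 and Pregnancy replicate 3, edgeR called 24, with 5 rising and 19 falling, against 50% of all genes. That fit sets 2 Pregnancy libraries with luteal marker sums of 354 and 402 TPM against 2 Year 1 libraries with sums of 24100 and 20800 TPM, and the part of luteal tissue in these calls was not tested. In that fit SLC16A3 fell by 2.79 on the log2 scale (SE 0.48, adjusted p = 0.00134), PDK3 by 2.79 (SE 0.29, adjusted p = 9.18e-05) and HK1 by 2.14 (SE 0.14, adjusted p = 1.27e-05). With all libraries none of these was called, at log2 0.07 (adjusted p = 0.976) for SLC16A3, whose highest library of each stage is one of those left out, -1.45 (adjusted p = 0.177) for PDK3 and -1.0 (adjusted p = 0.198) for HK1. Without both libraries, PFKFB3, PFKM, PFKP, EGLN1 and ADM rose. In the authors' deposited table, 2 of the 34 had a q-value under 0.05, both lower in Pregnancy, against 4.37% of all genes.

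Between Puberty and Pregnancy no gene of the 34 was called by edgeR, and 0.0% of all genes were. At an unadjusted p under 0.05 there were 4 of the 34, against 7.36% of all genes, and DESeq2 called 0 of the 34, against 0.627% of all genes. The authors' deposited table also had 0 of the 34 at a q-value under 0.05. The median log2 fold change of the 34 was 0.15, against 0.02 over all genes.

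Other genes of the same pathways comprised a list of 27 enzymes and transporters, of which 26 were tested, and a list of 30 genes of the hypoxia pathway, of which 27 were tested. In Puberty vs Day 3, 1 of the enzymes and transporters rose and 4 fell, against 11.5% of all genes rising and 17.2% falling. PDK4 (the pyruvate dehydrogenase kinase induced by fasting) averaged 98.4 ± 29.2 normalised CPM at Puberty and 40.8 ± 6.47 at Day 3 (SD, n = 3 each) and rose (log2 1.27, adjusted p = 0.0229). Those that fell included LDHC (log2 -3.44, adjusted p = 0.002) and SLC16A7 (MCT2, log2 -1.47, adjusted p = 0.00701). LDHC, the subunit known from germ cells, averaged 0.811 ± 0.176 normalised CPM at Puberty and 8.86 ± 0.232 at Day 3. Oocyte markers were also lower at Puberty, as given above, and their part in the LDHC level was not tested.

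Of the hypoxia pathway genes, 4 rose and 1 fell in Puberty vs Day 3, against 11.5% of all genes rising and 17.2% falling. Those that rose included HMOX1 (heme oxygenase 1, log2 2.10, adjusted p = 0.00156), PLOD2 (a collagen lysyl hydroxylase, 1.22, adjusted p = 0.00345) and ANGPTL4 (an angiopoietin-like inhibitor of lipoprotein lipase, 2.18, adjusted p = 0.0475). ANKRD37, a small HIF target, fell (log2 -1.58, adjusted p = 0.0123). Under total-count scaling the PDK4 and ANGPTL4 calls were lost (adjusted p = 0.0979 and 0.0518).

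In Year 1 vs Puberty none of these other genes was called by edgeR, against 0.0255% of all genes. At an unadjusted p under 0.05 there were 11 of the 26 enzymes and transporters and 12 of the 27 hypoxia pathway genes. The share over all genes was 31.2%. DESeq2 called 7 of 25 and 8 of 29 there, against 20.3% of all genes. Without both libraries that stand apart, edgeR called 17 of 25 and 13 of 28, against 51.6% of all genes. In Pregnancy vs Year 1, 3 of the 26 enzymes and transporters were called, against 2.96% of all genes. PDK4 averaged 144 ± 25.8 normalised CPM in Pregnancy and 35.5 ± 18.9 at Year 1 (SD, n = 3 each) and rose 4.06-fold (log2 2.02, adjusted p = 0.0401). PDP2, a phosphatase that reactivates pyruvate dehydrogenase, rose (log2 0.68, adjusted p = 0.046), and SLC2A8 (GLUT8) fell (log2 -1.12, adjusted p = 0.046). Of the 27 hypoxia pathway genes, ANKRD37 (log2 1.93, adjusted p = 0.046) and MXI1 (a MYC antagonist, log2 1.52, adjusted p = 0.0467) rose and EGLN2 (PHD1, log2 -0.57, adjusted p = 0.0486) fell. Under total-count scaling SLC2A8, MXI1 and EGLN2 were not called.

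In Year 1 vs Day 3, 16 of the 25 glycolytic genes of the set rose. Of the 26 other enzymes and transporters, 6 rose and 6 fell, near the shares of 24.0% rising and 24.0% falling over all genes. Their median log2 fold change was 0.01, against 0.03 over all genes. Of the 27 other hypoxia pathway genes, 10 rose and 5 fell, with a median of 0.53. Under total-count scaling these counts were 5 rising and 9 falling, and 4 rising and 9 falling. Over all genes 10.7% then rose and 39.6% fell. In Pregnancy vs Day 3, 3 of the 26 rose and 3 fell, and 6 of the 27 rose and 2 fell. The shares over all genes there were 15.9% rising and 18.1% falling.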

How the data were processed

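The 12 mRNA libraries, 3 per stage, were analysed; the 12 small RNA libraries were not analysed here. Per the submitters' processing notes, the tools were Bowtie2 2.3.4.3, RSEM 1.3.1 and DESeq2 1.4.5 with the build Sscrofa11.1. The authors deposited RSEM expected counts and TPM values per gene and library. The authors' deposited table also gives log2 fold changes and q-values for each pair of stages. The use of strand in counting is not given in the sources used here, so reads of overlapping antisense genes cannot be told apart, and RSEM can divide reads between near-identical loci.

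Expected counts were rounded (92.956% to 94.678% of a library's values were already whole). Genes were kept with filterByExpr at a minimum count of 10 and scaled by TMM. Stages were compared in 1 model of all 12 libraries with the quasi-likelihood method of edgeR 4.0.16 in R 4.3.3, in which every stage draws on the same spread of a gene. Benjamini-Hochberg adjustment ran over all 15699 genes, with a threshold of 0.05 for the adjusted p. The common biological coefficient of variation was 0.4. Each library is a separate sow, and the spread can also hold differences between the fragments sampled. No libraries of a stage agreed within sampling noise (chi-square per degree of freedom at least 18). TPM values were summed, or divided within families, with no test.

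Alternatives were RLE, upper-quartile and total-count scaling, DESeq2 1.42.0, a minimum count of 50, dropping the filter, a term for the replicate number, a fit of only the 2 stages compared, and leaving out each library or both libraries that stand apart. Total-count scaling was chosen after seeing the data. Both libraries that stand apart were also picked from these data. The scripts were tested on simulated data.

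All 34 genes are named. Values of every library are given for those called in any pair of stages and for the lowest adjusted p in each role. Other genes of the 2 pathways are named where called between consecutive stages, except some that are not reported here. The 34 genes and the other lists were chosen with earlier results of these data known. The chromosome 5 LDHB locus, SLC16A3, HK2, ALDOC, PDK3 and PFKM were given library values after these were seen.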

Additional observations from a re-analysis of the deposited data

How the results depend on the processing

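Among the 4 stages the count of 20 genes ran from 14 to 25 when 1 library was left out, and Year 1 vs Day 3 (21) from 18 to 23. Puberty vs Day 3 (8 genes) gave 13 with DESeq2, 24 in a fit of only the 2 stages, 24 without both libraries that stand apart, and 5 to 15 when 1 library was left out. With RLE or upper-quartile scaling its 8 calls were 6 rising and 2 falling, against 7 and 1. Year 1 vs Puberty (0) gave 15 with DESeq2, 24 without both libraries, and 0 to 19 when 1 was left out (19 without Year 1 replicate 1, 17 without Pregnancy replicate 3). Pregnancy vs Year 1 (1) gave 2 with RLE scaling, 2 with upper-quartile scaling, 2 at a minimum count of 50, 10 with DESeq2, 0 in a fit of only the 2 stages, 24 without both libraries, and 0 to 18 when 1 was left out (18 without Pregnancy replicate 3, 17 without Year 1 replicate 1). Pregnancy vs Day 3 (13) gave 7 with total-count scaling, 20 without both libraries, and 6 to 15 when 1 was left out (6 without Day 3 replicate 2). Pregnancy vs Puberty gave 0 under every alternative. The share of all genes called also changed with the setting. For Year 1 vs Puberty it is given above for the main fit, DESeq2 and the fits without 1 or both libraries that stand apart. For Pregnancy vs Year 1 it is given above for the main fit, DESeq2 and the fit without both libraries, but not for fits that left out 1 library. Over all genes, 465 were called in Pregnancy vs Year 1 in the main fit, 563 with RLE scaling and 326 with upper-quartile scaling. For the comparisons with Day 3 that share is given only for the main fit and for total-count scaling. Among the 4 stages it is given only for the main fit. A change in the set's counts between settings is therefore not by itself a result about the set. Upper-quartile scaling put the median of all genes at -0.195 in Year 1 vs Day 3. Of 43 gene-level calls, total-count scaling kept 31, DESeq2 43 and RLE scaling 42; leaving out 1 library kept 452 of 516, and none reversed under any alternative. Same-numbered libraries of different stages deviated together in some pairs and in opposite ways in others (correlations -0.393 to 0.402), so the numbers were not taken to pair the sows. With the replicate block the counts were 17 among the 4 stages, 8 in Puberty vs Day 3, 0 in Year 1 vs Puberty, 0 in Pregnancy vs Year 1 (LDHA at log2 -1.49, adjusted p = 0.0855), 22 in Year 1 vs Day 3 and 11 in Pregnancy vs Day 3. With 3 libraries per stage, and spread that differs between stages but is pooled in the test, changes of moderate size can miss the threshold. Calls that involve stages of wide spread can in turn lean on the tighter stages. Fits of only the 2 stages compared kept 39 of the 43 gene-level calls. Those lost included LDHA in Pregnancy vs Year 1 (adjusted p = 0.289) and ENO1 in Year 1 vs Day 3 (adjusted p = 0.0789).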
